A study of Mus musculus with 5 samples.

Results

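MOL2b is one of the populations of mature oligodendrocytes (MOLs) that the study named in the P60 mouse corpus callosum, the largest white matter tract of the forebrain. Its members are all cells that carry the deposited label MOL2b. They number 435 of 2853 cells, of which 270 were TdTom+ and 165 GFP+. The cells came from P60 mice of a mixed CBA and C57BL/6 background that carried Emx1::Cre, Sox10::Cre and a LoxP-GFP-STOP-TdTom reporter, and the corpus callosum of 2 mice was pooled before sorting by fluorescence. In these animals Sox10 marks the oligodendrocyte (OL) lineage, and cells whose progenitors expressed Emx1 in the dorsal forebrain carry TdTom, so that by design TdTom+ cells are dorsally derived and GFP+ cells ventrally derived. Each origin had a single library without a replicate animal, and the labels came from clustering these same cells and genes, so no test was made between labels or between origins, and all intervals cover counting error only. The origin, the sort and the library of a cell cannot be told apart. The libraries shared 1 cell barcode, and 1 of the cells that carry it was labelled MOL2b. The 3 spinal cord samples of the series were not analysed here.

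Oligodendrocytes wrap axons of the central nervous system in myelin, and they pass from precursors (OPCs) through committed, newly formed (COP/NFOL) and myelin-forming (MFOL) stages to MOLs. MOLs are not transcriptionally uniform. The MOL2 state is recognised by Klk6, a secreted serine protease, and by Hopx, an atypical homeodomain protein that does not bind DNA, whereas the MOL5/6 state is recognised by Ptgds, the enzyme that makes prostaglandin D2. Il33, a nuclear alarmin cytokine that the paper ties to MOL6, is counted here with the MOL5/6 markers. In the deposited labels MOL2 is divided into MOL2a, MOL2b, MOL2/4 and MOL2/MFOL.

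The targets by which MOL2 and MOL5/6 were located in tissue by in situ sequencing show which stretches of these transcripts mark the populations. In that method padlock probes, oligonucleotides that close into a circle on their target, bind short stretches of a transcript in a tissue section. A barcode carried by the probe is then sequenced. Each gene had 5 target stretches of 40 bases. The targets of Klk6, of Anxa5 (annexin A5, a calcium-dependent phospholipid-binding protein and a further MOL2 marker) and of Ptgds that lay wholly in coding sequence are given here, 5′ to 3′ on the transcript's strand, in GRCm38 (mm10) coordinates, with capitals at the bases on either side of an exon junction.
Klk6 target 1, exons 3 and 4, plus strand, chr7:43826103-43826823: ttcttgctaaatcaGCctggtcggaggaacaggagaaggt
Klk6 target 2, exon 6, plus strand, chr7:43829218-43829257: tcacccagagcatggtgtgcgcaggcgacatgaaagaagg
Klk6 target 3, exon 7, plus strand, chr7:43831582-43831621: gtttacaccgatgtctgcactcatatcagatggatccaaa
Anxa5 target 3, exons 8 and 9, minus strand, chr3:36453552-36457019: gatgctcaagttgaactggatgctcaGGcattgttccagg
Anxa5 target 4, exon 12, minus strand, chr3:36450383-36450422: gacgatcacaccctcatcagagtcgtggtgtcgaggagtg
Ptgds target 1, exon 1, minus strand, chr2:25469621-25469660: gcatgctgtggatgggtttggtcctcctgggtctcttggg
Ptgds target 2, exon 2, minus strand, chr2:25469044-25469083: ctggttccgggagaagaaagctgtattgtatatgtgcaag
Ptgds target 3, exon 4, minus strand, chr2:25468105-25468144: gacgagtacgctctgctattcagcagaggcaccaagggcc
For Hopx, 4 of the 5 targets lay in the 3′ UTR and 1 was partly coding. The sequencing libraries read the 3′ end of transcripts, so the coding targets name the transcripts, and whether the counted reads covered them was not checked.

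MOL2b was found in both origins, with shares whose intervals overlapped. It made up 14.2% of the TdTom+ cells, with an exact Clopper-Pearson interval at 95% of 12.7% to 15.9%, and 17.3% of the GFP+ cells, with an interval of 14.98% to 19.9%. TdTom+ cells were 62.1% of MOL2b (57.3% to 66.6%) and 67.5% of all other cells (65.5% to 69.3%). Among the merged MOL2 cells of each library, MOL2b accounted for 40.7% of those with TdTom and 46.3% of those with GFP. The depth of MOL2b was at the upper end of the MOL labels, with a median of 3888 UMIs (unique molecular identifiers, 1 per captured transcript) per TdTom+ cell and 4261 per GFP+ cell, against 3976.5 over both libraries in MOL2a and 2976 in MOL4-5/6, MOL6a and MOL6b together. The summed UMIs of MOL2b came to 1127537 for TdTom+ and 757926 for GFP+ cells. Of their UMIs 1.31% were mitochondrially encoded, 6.97% came from ribosomal protein genes and 15.05% from the nuclear RNA Malat1.

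Levels are given as UMIs summed over cells and scaled to CPM, the share of each gene among all summed UMIs in parts of 1000000, with an exact Poisson interval. Of the 12 labels, Hopx was highest in MOL2b, at 237 CPM (216 to 260), followed by MOL2a at 232 CPM (203 to 264), MOL2/4 at 189.5 CPM (149 to 237), MOL2/MFOL at 146 CPM and MOL1 at 105 CPM. The intervals of MOL2b, MOL2a and MOL2/4 overlapped, so their order is not beyond counting error. All of MOL4-5/6, MOL6a and MOL6b lay under 20 CPM of Hopx, and OPC held 1 UMI of it. Klk6 did not single out MOL2b within MOL2. It stood at 1541 CPM in MOL2/4 (1422 to 1668), 401 CPM in MOL1, 373 CPM in MOL2/MFOL, 294 CPM in MOL2a (261 to 330) and 287 CPM in MOL2b (263 to 312), and at 22.7 CPM or less in the remaining labels. Both genes stood higher in MOL2b than in the MOL5/6 labels, but Klk6 was higher still in MOL1, neither gene told MOL2b from MOL2a, and the label was made from these same genes.

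**Figure D1:**
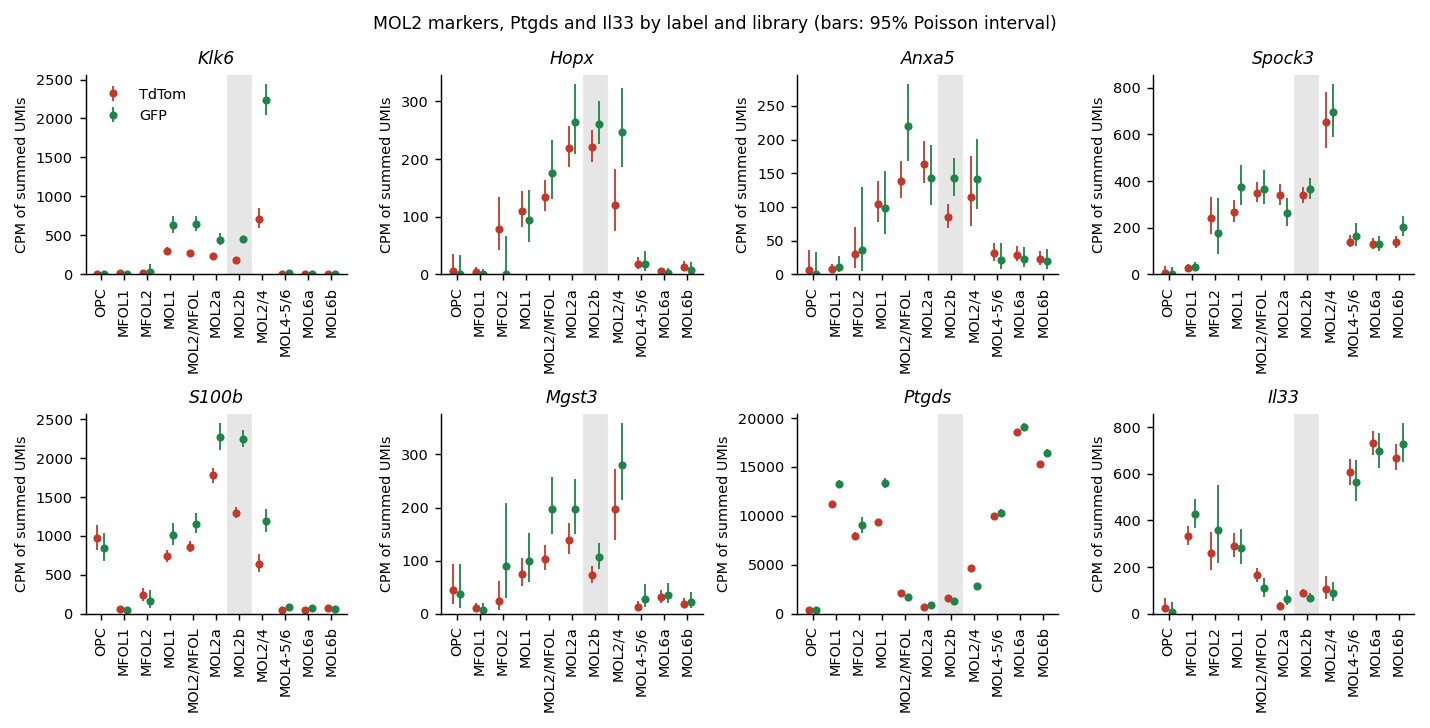
Level of each gene in CPM of summed UMIs (y axis) in 11 labels (x axis) for the TdTom+ (red) and GFP+ (green) libraries, with 95% Poisson intervals and MOL2b on grey; COP/NFOL, with 19 cells, is not drawn. Klk6 peaks in MOL2/4, Hopx lies at similar heights in MOL2a and MOL2b, and Ptgds and Il33 lie far lower in MOL2b than in MOL4-5/6, MOL6a and MOL6b.

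The other 4 MOL2 markers placed MOL2b differently. Spock3, a secreted proteoglycan, stood at 351 CPM in MOL2b, beside 355 CPM in MOL2/MFOL and 317 CPM in MOL2a, and at 676 CPM in MOL2/4. S100b, a calcium-binding protein, stood at 1681 CPM in MOL2b and 1925 CPM in MOL2a, with both below the 2155 CPM of COP/NFOL. Anxa5 was at 108 CPM (93.9 to 124), below MOL2/MFOL at 160 CPM and MOL2a at 158 CPM. Mgst3, a microsomal glutathione transferase, was at 86.5 CPM, below MOL2/4 at 242 CPM, MOL2a at 157 CPM and MOL2/MFOL at 129 CPM. Only Hopx among the 6 markers had its highest level in MOL2b in the summed cells. In GFP+ cells it was at 261 CPM in MOL2b and 264 CPM in MOL2a.

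To see how many MOL2b cells carried the markers, every cell was thinned at random to 2400 UMIs, which kept 426 MOL2b cells (264 TdTom+, 162 GFP+). A Klk6 UMI was found in 31.9% of them (27.5% to 36.6%), in 22.0% of the TdTom+ cells (17.1% to 27.5%) and in 48.1% of the GFP+ cells (40.2% to 56.1%). Without thinning the share of all MOL2b cells was 41.6%. In OPCs, which should lack Klk6, it was found in 0 of 71 cells, which by the exact interval allows a share of up to 5.06%, with a median of 2895 UMIs per OPC before thinning and 4086 per MOL2b cell. In MOL4-5/6, MOL6a and MOL6b together it was found in 2.03%, so the share in MOL2b lay far above background. Hopx was found in 34.7% of MOL2b cells (30.2% to 39.5%), in 34.5% of TdTom+ and 35.2% of GFP+ cells, and in 1.41% of OPCs and 2.67% of the MOL5/6 labels. Unthinned, its share was 49.2%. The Hopx shares of the origins were thus within counting error of each other, whereas the Klk6 intervals did not overlap. S100b was found in 72.5% of MOL2b cells and 12.4% of the MOL5/6 labels, Spock3 in 53.8% and 27.8%, Anxa5 in 19.5% and 5.53%, and Nkx2-9, a homeodomain transcription factor, in 14.6% and 0.184%. These shares did not set MOL2b apart within MOL2. In MOL2a they were 29.7% for Klk6, 35.6% for Hopx, 72.1% for S100b, 46.8% for Spock3, 23.4% for Anxa5 and 9.91% for Nkx2-9. Each interval overlapped that of MOL2b. In MOL2/4 Klk6 was found in 68.9%.

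Klk6 and Hopx were found together in 64 of the 426 cells (15.02%, interval 11.8% to 18.8%), where the product of the single shares gives 47.2 cells. Klk6 alone was found in 72 cells, Hopx alone in 84 and neither in 206. Hopx was present in 47.1% of cells with Klk6 and 29.0% of cells without, and this held in each library, with 46.6% against 31.1% in TdTom+ and 47.4% against 23.8% in GFP+ cells. S100b was found in 97.1% of the cells with Klk6 and 61.0% of those without, whereas Spock3 was found in 54.4% and 53.4%, lower with Klk6 in TdTom+ cells (50% against 55.3%) and higher in GFP+ cells (57.7% against 48.8%). MOL2a was much alike, with Hopx in 43.9% of cells with Klk6 against 32.1% without. S100b was found there in 97.0% and 61.5%. Of the 6 MOL2 markers, a MOL2b cell showed a median of 2 in the TdTom+ and 3 in the GFP+ library. No marker was found in 46 cells (10.8%), and 3 or more were found in 45.3%, which is close to MOL2a at 43.2%, below MOL2/4 at 69.8%, above MOL2/MFOL at 32.3% and far above MOL6b at 0.804%. In OPCs, of which 90.1% had S100b, 3 or more were found in 0%.

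**Figure D2:**
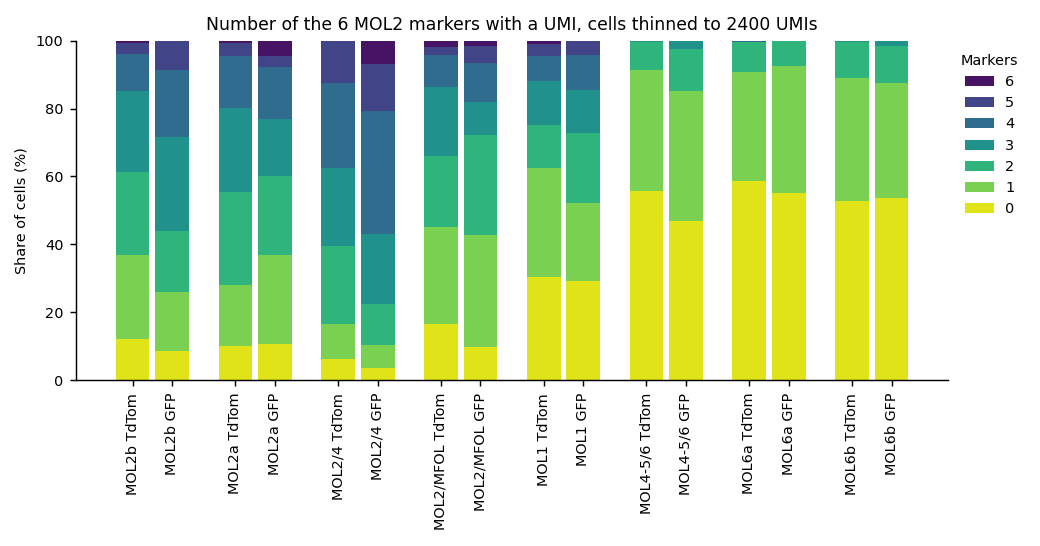
Share of cells (y axis, %) with 0 to 6 of the MOL2 markers Klk6, Hopx, Anxa5, Spock3, S100b and Mgst3, for 8 labels and each library (x axis), after thinning to 2400 UMIs per cell. Cells with 3 or more markers make up 38.6% of TdTom+ and 56.2% of GFP+ MOL2b cells and are rare in MOL4-5/6, MOL6a and MOL6b.

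Against all other cells of the OL lineage, MOL2b had more Nkx2-9, Hopx, S100b and Tspan9, a tetraspanin, and less Ptgds, Il33 and Opalin. Of these genes only Ptgds was called against MOL2a, in the opposite direction, higher in MOL2b. A gene was called where its CPM differed by a fold of at least 1.5 in the same direction in each library, for genes averaging 50 CPM or more. Folds and log2 ratios were taken after adding 1 CPM to each level. On this rule 66 of 2944 genes were higher (2.24% of those tested) and 99 lower (3.36%). The median log2 ratio over all tested genes was -0.01, 87.5% of genes lay within 0.5 of 0, and across genes the log2 ratios of the TdTom+ and GFP+ libraries had a Pearson's r of 0.803, which describes 2 libraries that share the labels and is not a replicate of animals. As the labels were made from these genes, the following values describe the population.

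Nkx2-9 led the higher genes, at 71.0 CPM in TdTom+ and 103 CPM in GFP+ MOL2b cells against 15.5 and 22.99 CPM in all other cells, a fold of 4.49 in the summed cells. Hopx stood at 221 and 261 CPM against 62.5 and 73.9 CPM (fold 3.55), and Tspan9 at 113 and 203 CPM against 45.8 and 46.0 CPM (fold 3.201). S100b stood at 1298 and 2251 CPM against 480.0 and 639 CPM (fold 3.16). In each of these genes both MOL2b libraries lay above both libraries of the other cells. Nkx2-9 and Tspan9 were under 50 CPM in the other cells and passed the filter only through MOL2b, so that their direction was fixed. Further down came Slc25a27, a mitochondrial uncoupling protein (fold 2.49), Faah, which breaks down the endocannabinoid anandamide (fold 2.42), Hcn2, a hyperpolarisation-activated cation channel (fold 2.15), and Etv1, an ETS transcription factor. Etv1 stood at 1013 and 1230 CPM against 519.7 and 537 CPM, a fold of 2.09, and its level in MOL2b, 1100 CPM (1053 to 1148), was above that of MOL2a, 896 CPM (838 to 957), with intervals that did not overlap. The 20 largest folds also included Cd59a, an inhibitor of complement lysis (2.09), Anln, an actin-bundling septin partner of the myelin sheath (2.04), Pmp22, a tetraspan membrane protein of myelin (2.00), and Sepp1, the secreted selenium carrier selenoprotein P, at 1885 and 2221 CPM against 983 and 1174 CPM (1.93).

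Of the 6 MOL2 markers 3 were higher in MOL2b, Hopx, S100b and Spock3, and 0 lower, with a median log2 ratio of 0.77 over the list. The remaining 3 did not pass in each library. Klk6 was at 179 and 447 CPM in MOL2b against 112 and 333 CPM in other cells, and the fold of the GFP+ library, at a log2 ratio of 0.42, was under the limit. Anxa5 was at 85.1 and 142 CPM against 63.0 and 65.8 CPM, and Mgst3 at 72.7 and 107 CPM against 53.7 and 85.6 CPM. For Klk6 and Mgst3 the GFP+ level of other cells, which include MOL2/4 and MOL1, was above the TdTom+ level of MOL2b, whereas for Anxa5 both MOL2b libraries lay above both of the other cells.

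Among the genes lower in MOL2b were some markers of other states. Ptgds was at 1602 CPM in TdTom+ and 1306 CPM in GFP+ MOL2b cells against 9686 and 10326 CPM in other cells, 6.67-fold lower. Il33 was at 87.8 and 68.6 CPM against 406 and 399 CPM (4.99-fold lower), and Opalin, a transmembrane sialoprotein of myelin-forming and mature cells, at 281 and 219 CPM against 1046 and 1015 CPM (4.03-fold lower). Cd9, a tetraspanin, was at 63.0 and 51.5 CPM against 274 and 343 CPM (5.01-fold lower). Of the OPC genes, Ptprz1, a receptor phosphatase, and Cspg5, a proteoglycan, were 9.93-fold and 4.29-fold lower. Marcks, a substrate of protein kinase C, had 3 UMIs in MOL2b, all in TdTom+ cells, at 1.59 CPM against 100.01 CPM, a log2 ratio of -5.28 with an interval of -8.25 to -4.42. It passed the filter of 50 CPM only through the other cells, so that its direction was fixed. In the GFP+ library, where it had 0, a limit of 3 UMIs corresponds to 3.96 CPM. The gene positions behind the leading members are, in GRCm38, Klk6 at chr7:43824499-43832030, Hopx at chr5:77086988-77115121, Nkx2-9 at chr12:56611389-56613284, Ptgds at chr2:25466709-25470046 and Slc1a2 at chr2:102658659-102790784, each a protein-coding gene.

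**Figure D3:**
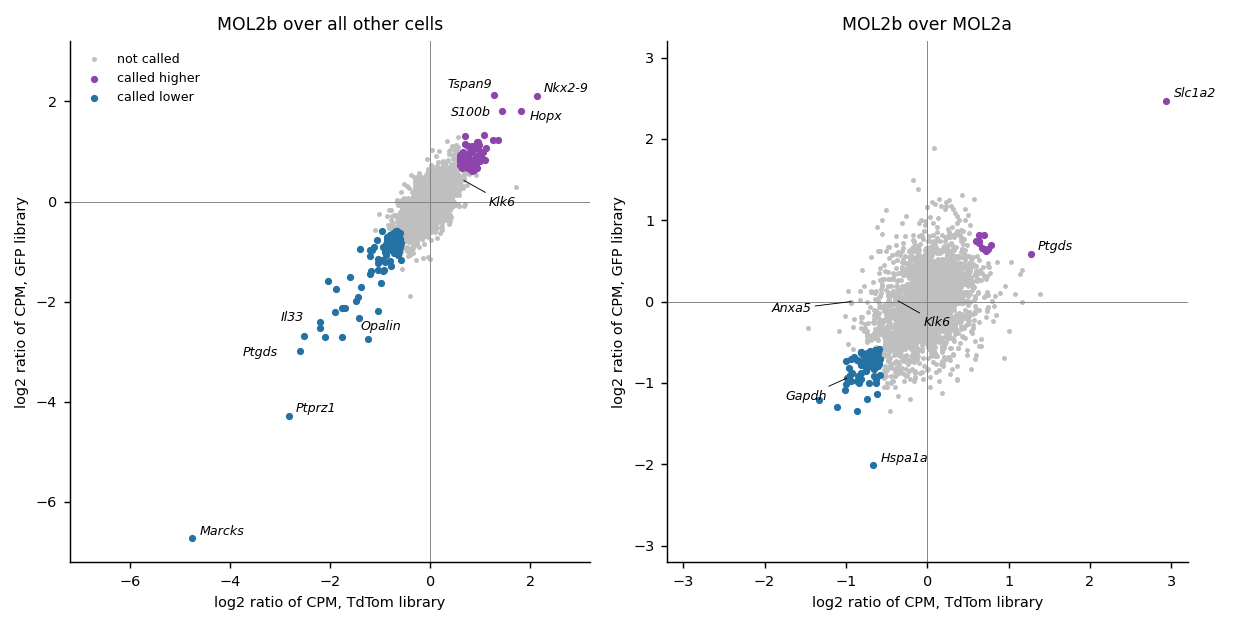
Log2 ratio of CPM in the TdTom+ library (x axis) against that in the GFP+ library (y axis) for each tested gene, of MOL2b over all other cells on the left and of MOL2b over MOL2a on the right, with called genes in colour. Against other cells Nkx2-9, Hopx, S100b and Tspan9 lie apart at the upper right and Ptgds, Ptprz1 and Marcks at the lower left (Marcks has 0 UMIs in GFP+ MOL2b, so its y value depends on the pseudocount). Against MOL2a most genes lie near 0 and Slc1a2 stands apart at the upper right.

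Groups of genes with related roles are given for the contrast with all other cells by their counts and medians, beside 2.24% of all genes higher, 3.36% lower and a median of -0.01. A gene under 50 CPM in 1 group could pass the filter only through the other, which fixed its direction, and this holds in the counts against all other cells for these called members (Junb, Egr1, Dnajb1, Hspa1a, Ctsl, Tpi1, Arpc1b, Mcam, Ptprz1 and Cspg5). Of the structural myelin genes, 4 of 15 were lower, namely Mal, Cldn11, Tspan2 and Opalin, and 0 higher (median -0.31). Mbp, myelin basic protein, was not among them, at 12371 and 12794 CPM in MOL2b against 10958 and 10684 CPM. Of 17 immediate early genes, which are induced within minutes of a stimulus, 5 passed the filter. Junb and Egr1 were under 50 CPM in MOL2b and passed only through the other cells, so that they had to be lower, and no median is given. Of the remaining 3, Jun and Fos were lower and Jund was not called. Fos stood at 94.9 and 107 CPM in MOL2b against 354 and 364 CPM in other cells. Heat shock and chaperone genes gave 4 of 14 lower (median -0.41), led by Hsp90ab1, Hspa1a, Hsp90aa1 and Dnajb1, where reads of Hspa1a and its near-identical neighbour Hspa1b may have been split. Lysosomal genes gave 3 of 12 lower (median -0.39), the saposin precursor Psap, the tetraspanin Cd63 and the protease Ctsl. Of 12 lineage transcription factors 2 were lower (median -0.05), Olig1 at 838 and 869 CPM against 1297 and 1415 CPM and Olig2 at 132 and 127 CPM against 212 and 229 CPM, while Sox10 stood at 1060 and 672 CPM against 1020.0 and 638 CPM.

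Several other lists gave 0 calls against all other cells, which for the shorter lists is near the 2.24% higher and 3.36% lower of all genes and is no result about them. These were fatty acid and galactolipid synthesis (0 of 15, median 0.19), tubulins and microtubule regulators (0 of 13, median 0.11), iron storage and transport (0 of 5, median 0.01), oxidative phosphorylation (0 of 74, median -0.04), ion channels and transporters (0 of 9, median -0.11), cholesterol synthesis and uptake (0 of 5, median -0.04), MHC class I (0 of 2, median -0.14), mitochondrially encoded genes (0 of 7, median -0.05) and cytosolic ribosomal proteins (0 of 81, median -0.05). Annexins and S100 proteins gave 1 of 6 higher, S100b, with all 6 above 0 and a median of 0.55. Actin regulators gave Anln higher and Arpc1b, an actin nucleation factor, lower of 17 (median 0.07). Adhesion and paranode genes gave Epb41l2 higher and Nfasc, Cldn11 and Mcam lower of 15 (median -0.06), and secreted proteases and inhibitors gave Spock3 higher and Timp2 lower of 8 (median 0.08). Of 5 glutathione transferases (median 0.42) Gstp1 was lower, at 234 and 124 CPM against 611 and 407 CPM, with the limit that its near-identical copies may share reads. Of 6 tested glycolysis genes Tpi1 and Pkm were lower (median -0.61). Of the marker lists of other states, 2 of the 8 MOL1 genes passed the filter. Fos was lower, and so was Egr1, which passed through the other cells alone, so that its direction was fixed. Of the tested genes 2 of 6 for MOL5/6 (Ptgds and Il33, median -0.27), 1 of 3 for MFOL (Opalin, median -0.67) and 0 of 3 for COP/NFOL (median -0.46) were lower. Of the 6 OPC genes only Ptprz1 and Cspg5 passed the filter, through the other cells alone, so that their direction was fixed. Of 2 tested astrocyte genes Slc1a3 was higher, at 199 and 169 CPM against 109 and 104 CPM. The other, Slc1a2, passed the filter only through MOL2b and was not called, and no median is given.

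MOL2a was the label most like MOL2b. Over 3141 genes the log2 CPM of the labels had a Pearson's r of 0.973, and 7.29% of genes were past a fold of 1.5 in the summed cells, against 18.1% for MOL2/MFOL (r 0.947), 12.3% for MOL6b (r 0.946), 44.3% for MOL2/4 (r 0.873) and 56.7% for OPC (r 0.289). These correlations are across genes, which are not independent. With the rule asking for each library, 12 of 2901 genes were higher in MOL2b than in MOL2a (0.414%) and 67 lower (2.31%), with a median log2 ratio of -0.02 and a between-library r of 0.417, lower than in the contrast with all other cells. The MOL2 markers did not set these labels apart in one direction. Klk6 was at 179 and 447 CPM in MOL2b and 230.3 and 444 CPM in MOL2a, with a log2 ratio of -0.04 (-0.24 to 0.18), and Hopx at 221 and 261 CPM against 219 and 264 CPM, with a log2 ratio of 0.03 (-0.20 to 0.26). Spock3 gave 0.14 (-0.05 to 0.34) and S100b -0.20 (-0.28 to -0.11). Nkx2-9 was at 71.0 and 103 CPM against 69.1 and 84.8 CPM, and Opalin at 281 and 219 CPM against 213 and 248 CPM. Il33 was at 87.8 and 68.6 CPM against 33.1 and 64.4 CPM, higher in MOL2b by the fold in the TdTom+ library alone. Anxa5 was lower in MOL2b in the TdTom+ library, at 85.1 against 164 CPM, and level in the GFP+ library, at 142 CPM in each. Only Mgst3 was called, lower in MOL2b at 72.7 and 107 CPM against 140 and 197 CPM.

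Slc1a2, the glutamate transporter GLT-1 that is most abundant in astrocytes, had the largest fold of MOL2b over MOL2a. It stood at 117 CPM in TdTom+ and 60.7 CPM in GFP+ MOL2b cells against 14.4 and 10.2 CPM in MOL2a, a fold of 6.75 and a log2 ratio of 2.75 (2.03 to 3.78). Slc1a2 was under 50 CPM in MOL2a and passed the filter only through MOL2b, so that its direction was fixed. Few cells carried it: 48 of the 270 TdTom+ and 30 of the 165 GFP+ MOL2b cells had a Slc1a2 UMI, 10 TdTom+ cells held 65.9% of that library's UMIs, and a single cell held 26. Several other astrocyte genes also had a higher CPM than in MOL2a, but none of them was called. The 8 astrocyte markers summed to 382 CPM in MOL2b (427 in TdTom+, 315 in GFP+) against 190.0 CPM in MOL2a and 192 CPM in all other cells, and none of the 8 was at 0 in MOL2b. Gja1, an astrocyte connexin, had 20 UMIs in MOL2b and 3 in all other cells, and Sox9 had 14 and 3. Gfap went the other way, with 14 UMIs in MOL2b (7.43 CPM) and 17 in MOL2a (17.2 CPM). Of the list only Slc1a2, through MOL2b alone, and Slc1a3 passed the filter against MOL2a, and Slc1a3, at 199 and 169 CPM against 141 and 132 CPM, was not called. At least 3 of the 8 markers were found in 23 MOL2b cells (5.29%, 3.38% to 7.83%), with up to 7 in a cell, in 4 of 230 MOL2a cells (1.74%) and in 16 of 83 OPCs, which express several of them.

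Those 23 cells, 14 TdTom+ and 9 GFP+, held 103 of the 178 Slc1a2 UMIs of MOL2b. They also carried oligodendrocyte transcripts, with Mbp at 10788 CPM, Mog, myelin oligodendrocyte glycoprotein, at 1214 CPM and Mag at 1069 CPM, and had a median of 4170 UMIs against 4086 in the label. No doublet caller was run. Leaving these cells out was an alternative added once the data had been seen, and the log2 ratio of Slc1a2 over MOL2a was then 1.61. As Slc1a2 is itself 1 of the 8 markers that chose these cells, and they were left out of MOL2b alone, part of this decrease is fixed by the choice, here and in the further contrasts. With cells of every label that had 3 markers of another cell type left out it was 2.07. Among the other cell types, MOL2b held 2 UMIs of 6 microglial genes, 2 of 6 neuronal genes, 5 of 5 endothelial genes, 2 of the pericyte gene Pdgfrb, 31 of the ependymal gene Foxj1 and 33 of the haemoglobin gene Hba-a1. No MOL2b cell had 3 microglial, neuronal or endothelial markers, and the other lists had too few genes for such a count. Of the Schwann cell list Pmp22, which MOLs express, was at 470 CPM and Ncmap had 3 UMIs.

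Ptgds was the only other gene with a fold over 2 above MOL2a, at 1602 and 1306 CPM against 664 and 868 CPM (log2 ratio 1.03, 0.91 to 1.15). The share of thinned cells with a Ptgds UMI did not follow the level, at 59.8% of TdTom+ and 46.9% of GFP+ MOL2b cells against 52.9% and 56.9% in MOL2a, and the 10% of MOL2b cells with most held 65.7% of its UMIs. The remaining 10 genes higher in MOL2b had folds of 1.54 to 1.69, among them the ubiquitin ligase Pja2 (1.69), the cohesin-release factor Wapl (1.63), the stress transcription factor Ddit3 (1.61), the translation factor Eif4g2 (1.60), Pex5l, a partner of HCN channels (1.60), and the integrin Itgb1 (1.54). Eif4g2, the highest of them, was at 584 and 569 CPM against 359.9 and 363 CPM. Lower in MOL2b were the transport factor Trappc3 (2.38-fold), the HSP90 co-chaperone Ahsa1 (2.30-fold), the small GTPase Rhoa, at 329 and 310.1 CPM against 665 and 658 CPM (2.06-fold), Gapdh of glycolysis, at 223 and 257 CPM against 443 and 495 CPM (1.94-fold), and the dynactin subunit Dctn3 (1.88-fold). Hspa1a was at 49.7 and 39.6 CPM against 79.2 and 163 CPM (2.25-fold). It was under 50 CPM in MOL2b and passed the filter only through MOL2a.

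By list, Mgst3, Hspa1a, Gapdh, Cldn11, Stmn1 with Tppp3 (microtubule regulators), Cdc42 and 2 of 74 oxidative phosphorylation genes were lower than in MOL2a, and of the function lists none had a member higher. Set beside the 2.31% lower and 0.414% higher of all genes, these counts are not read as results about the lists. The longest annotated transcript had a median of 4965 bases over the 12 genes higher in MOL2b, 1599 bases over the 67 lower and 2861.5 bases over 2820 tested genes with a length. The same order was seen against all other cells, with medians of 4163 bases for higher and 2108 bases for lower genes among a median of 2898 bases tested, against MOL2/MFOL, with 4477 and 1795 bases among 2816.5 bases, and against the pooled MOL5/6 labels, with 3201 and 2120.5 bases among 2898 bases. Against MOL2/4 the order was the opposite, with 1657.5 bases for higher and 2163 bases for lower genes among 2861 bases. MOL2b also had 1.31% mitochondrial UMIs against 1.12% in MOL2a and 15.05% Malat1 UMIs against 13.4%, and the part of these differences in the calls was not tested.

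Within the neighbourhood of single cells, MOL2b and MOL2a were mixed. Of the 15 nearest cells of a MOL2b cell on 30 principal components, 34.7% were MOL2b, 21.9% MOL2a, 14.4% MOL2/MFOL and 7.11% MOL2/4, where MOL2b is 15.2% of all cells. A majority of neighbours of the own label was found for 23.4% of MOL2b cells, 20% in TdTom+ and 29.1% in GFP+. The neighbours of MOL2a cells were MOL2b in 34.8% and MOL2a in 22.6%, and those of MOL2/4 cells were MOL2b in 34.5% and MOL2/4 in 10.2%. MOL2a is 8.06% and MOL2/4 4.31% of all cells, and these shares were not scaled to the size of a label. Of the MOL5/6 labels, MOL4-5/6 made up 6.53% of the neighbours of MOL2b cells, MOL6a 6.13% and MOL6b 5.29%, while together these labels are 43.1% of all cells.

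**Figure D4:**
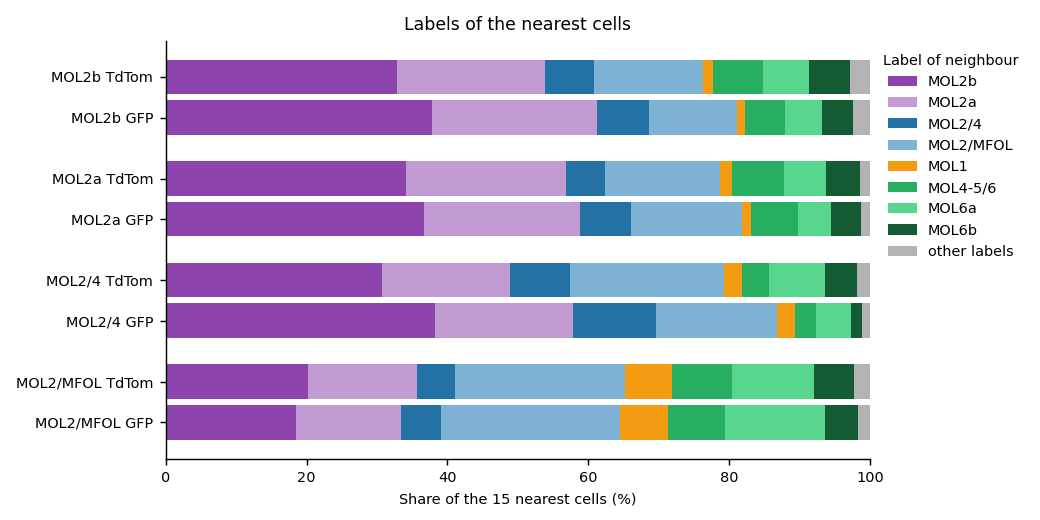
Labels of the 15 nearest cells (x axis, share in %) for the cells of the 4 MOL2 labels in each library (y axis). MOL2b takes the largest share among the neighbours of MOL2b, MOL2a and MOL2/4 cells in both libraries, and MOL2/MFOL cells have more MOL2/MFOL neighbours.

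MOL2/4 differed from MOL2b in more genes than any other MOL2 label, with 571 of 2897 genes higher in MOL2b (19.7%) and 344 lower (11.9%). The median log2 ratio over all genes was 0.16, and centring on it gave 430 higher and 444 lower. MOL2b held 5.36-fold less Klk6 (179 and 447 CPM against 712 and 2235 CPM), 4.27-fold less Apod, a lipid-carrying lipocalin (1820 and 2292 CPM against 6972 and 9927 CPM), and 3.60-fold less Trf, transferrin (2670 and 3010 CPM against 9655 and 10463 CPM). In all 3 genes both libraries of MOL2b lay below both of MOL2/4. Pdia3 and Lgmn, of the endoplasmic reticulum and the lysosome, were also lower, and Spock3 and Mgst3 had log2 ratios of -0.94 and -1.47. S100b was higher (log2 ratio 0.84). Of the 6 leading genes higher in MOL2b, Tomm5 of the mitochondrial import pore had the largest fold, 6.11, from 6 UMIs in MOL2/4. It passed the filter only through MOL2b, so that its direction was fixed. Cytosolic ribosomal protein genes were higher in 75 of 80 (median 1.38) and lysosomal genes lower in 10 of 12 (median -1.23), of which Ctsz and Ctsl passed the filter only through MOL2/4. MOL2/4 had a median of 3043 UMIs per cell, 2.04% mitochondrial UMIs, 2.68% ribosomal protein UMIs and 21.8% Malat1 UMIs, against 4086, 1.31%, 6.97% and 15.05% in MOL2b, and the part of these in the calls was not tested.

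Against MOL2/MFOL, 51 of 2941 genes were higher in MOL2b (1.73%) and 285 lower (9.69%), with a median log2 ratio of 0.00. Higher were Slc1a2 (fold 7.0004, and a log2 ratio that went from 2.81 to 1.66 without the 23 cells above), the succinate dehydrogenase assembly factor Sdhaf1 (2.72), Nkx2-9 (2.49) and Tspan9 (2.24). Slc1a2 and Nkx2-9 were under 50 CPM in the summed cells of MOL2/MFOL. They passed the filter only through MOL2b, so that their direction was fixed. Of the immediate early genes that were above 50 CPM in MOL2b itself, Jun, Jund and Fos were lower, with Fos at 94.9 and 107 CPM against 402 and 450.3 CPM. Hspa1a, under 50 CPM in MOL2b and passing the filter only through MOL2/MFOL, was 5.71-fold lower. Itm2b, an integral membrane protein, was 3.89-fold lower. Glycolysis genes were lower in 4 of 6, Gapdh, Ldhb, Aldoa and Tpi1, the last of which passed the filter only through MOL2/MFOL. Of the MOL2 markers S100b was higher and Anxa5 lower, while Spock3 stood at 340 and 367 CPM in MOL2b and 349.8 and 367 CPM in MOL2/MFOL.

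Of the 5 contrasts made, the MOL2 markers differed most against MOL4-5/6, MOL6a and MOL6b, pooled here as MOL5/6, with 131 of 2926 genes higher in MOL2b (4.48%) and 101 lower (3.45%), a median log2 ratio of -0.02 and a between-library r of 0.828. All 6 MOL2 markers were called higher, but Klk6, Hopx, Anxa5 and Mgst3 were under 50 CPM in MOL5/6 and passed the filter only through MOL2b, so that the count is no support. Klk6 stood at 179 and 447 CPM against 6.70 and 8.53 CPM (fold 34.9, log2 ratio 5.12, 4.76 to 5.91), S100b at 1298 and 2251 CPM against 52.9 and 70.8 CPM (fold 28.4) and Hopx at 221 and 261 CPM against 11.5 and 7.67 CPM (fold 20.9). Tspan9, the membrane protein Mmd2 and Faah followed, with folds of 8.79, 7.92 and 6.02. Tspan9 too was under 50 CPM in MOL5/6 and passed the filter only through MOL2b. Lower were Ptgds, 10.3-fold, at 1602 and 1306 CPM against 14973 and 16039 CPM, and Il33, 8.34-fold, at 87.8 and 68.6 CPM against 674 and 678 CPM, followed by the haem-binding protein Hebp1 (7.59-fold), Opalin (5.33-fold), Cd9 (5.29-fold) and the semaphorin Sema6d (4.71-fold). Of the 6 MOL5/6 markers, 2 were thus lower and 1, Apod, was higher in MOL2b (log2 ratio 0.70). Annexins and S100 proteins were higher in 4 of 6 (Anxa5, which passed only through MOL2b, S100a6, S100a16 and S100b), and Ugt8a, Gal3st1 and Elovl5 of galactolipid and fatty acid synthesis in 3 of 15, with Ugt8a, which makes galactocerebroside, at 1015 and 969.8 CPM against 599 and 589 CPM.

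Ptgds had the highest ratio of variance to mean among MOL2b cells, a ratio that grows with a gene's level. In cells thinned to 2400 UMIs its variance was 16.7 times its mean in the TdTom+ and 20.8 times in the GFP+ library, with a median of 1 and 0 UMIs and a highest cell of 57 and 54 UMIs, and few cells thus held most of its UMIs. Over 3048 genes the median of this ratio was 1.02 in TdTom+ and 1.01 in GFP+. A Ptgds UMI was found in 54.9% of MOL2b cells, which is no higher than the 57.7% of OPCs, so the share itself is not read as expression. The level was higher than in OPC, at 1483 CPM against 407 CPM. S100b had a ratio of 3.72 and 3.99, Klk6 of 1.86 and 2.15, and Fos of 2.65 and 2.74.

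Between the origins MOL2b cells were alike in most genes. Of 2951 genes, 37 were at least 1.5-fold higher in TdTom+ than in GFP+ MOL2b cells (1.25%) and 43 lower (1.46%), and 94.9% lay within 0.5 of 0 on the log2 scale around a median of 0.01. The counting interval left out 0 for 147 genes on the higher (4.98%) and 140 genes on the lower side (4.74%). The lowest ratios were those of Uchl1, a ubiquitin hydrolase, at 36.4 CPM in TdTom+ and 103 CPM in GFP+ cells (log2 ratio -1.48, -2.08 to -0.94), and of Klk6, at 179 and 447 CPM (-1.32, -1.58 to -1.06). Klk6 was lower in the TdTom+ library in each MOL2 label and in MOL1, with -0.94 in MOL2a, -1.65 in MOL2/4, -1.24 in MOL2/MFOL and -1.07 in MOL1. Uchl1 was at 102 and 129 CPM in MOL2a, where the interval of its log2 ratio held 0 (-0.33, -0.92 to 0.27), so that TdTom+ MOL2b cells had the lowest level of these 4 groups. The difference of the ratios between labels was not tested.

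S100b was lower in TdTom+ cells too, at 1298 and 2251 CPM in MOL2b (-0.79, -0.90 to -0.69) against -0.35 in MOL2a and -0.89 in MOL2/4. The cell cycle inhibitor Cdkn1c was at 47.9 and 104 CPM (-1.11), the vesicle protein Vamp7 at 81.6 and 157 CPM (-0.94), Tspan9 at 113 and 203 CPM (-0.85) and Anxa5 at 85.1 and 142 CPM (-0.74). Of the 6 MOL2 markers 3 were lower in TdTom+ cells, Anxa5, Klk6 and S100b, and 0 higher (median -0.64). Hopx gave -0.24 (-0.52 to 0.03) and Spock3 -0.11 (-0.34 to 0.12), so a difference in them was not detectable at this depth. Mgst3 gave -0.55 (-1.02 to -0.09), under the fold of 1.5 but with an interval that left out 0. Higher in TdTom+ cells were the slow troponin Tnni1, at 91.3 and 38.3 CPM (1.23, 0.65 to 1.90), Slc1a2 (0.94, 0.45 to 1.46), Gstp1, at 234 and 124 CPM (0.91), the angiomotin Amotl2 (0.87), Babam1 of the BRCA1-A complex (0.86) and the antisense RNA Prox1os (0.82). Uchl1 and Cdkn1c were under 50 CPM in TdTom+ cells, and Tnni1, Amotl2 and Babam1 in GFP+ cells. Each of these passed the filter only through the other library. Without the 23 cells with astrocyte markers Slc1a2 gave 0.24. Gstp1 gave 0.91 in MOL2a and 1.19 in MOL2/4, and Sox10, at 1060 and 672 CPM in MOL2b, 1020.0 and 638 CPM in other cells.

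**Figure D5:**
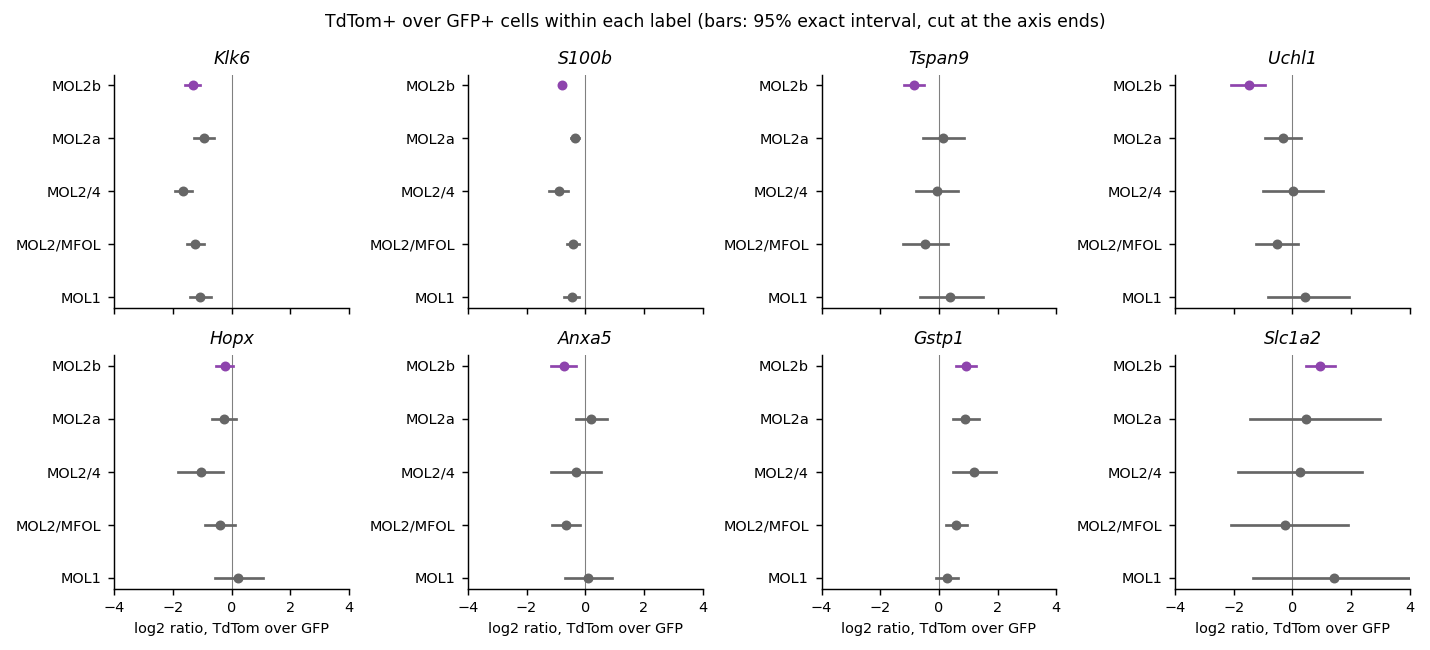
Log2 ratio of CPM of TdTom+ over GFP+ cells (x axis) within MOL2b (purple) and 4 further labels (y axis), with 95% exact intervals cut at the ends of the axis. Klk6 lies left of 0 in all 5 labels, Uchl1 and Tspan9 have intervals left of 0 in MOL2b alone among the 5, and the Slc1a2 intervals outside MOL2b are wide because few UMIs were counted.

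The genes whose level followed that of a marker over the 12 labels are given as a description, since the labels share libraries and were made from these genes. Most like Klk6 in log2 CPM were Sccpdh (Pearson's r 0.972), the serpin Serpind1 (0.932), Anxa5 (0.925), Fam131b (0.899) and Mvb12b (0.895), at 290 CPM for Sccpdh in MOL2b. Most like Hopx were Slc25a27 (0.963), Usp31 (0.961), the lipid droplet protein Plin3 (0.944), Hivep3 (0.941) and Iqsec1 (0.937). Slc25a27, Usp31, Hivep3 and Iqsec1 were also among the 20 genes with the largest fold of MOL2b over all other cells.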

How the data were processed

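The 2 corpus callosum libraries were made with 10x Genomics 3′ chemistry. Per the labels the submitters' processing notes name Cell Ranger 2.1.1 and mm10. The authors aligned reads with STAR (its version is not given in the sources used here), kept cells with 200 to 3000 genes and under 5% mitochondrial UMIs, integrated the libraries in Seurat, clustered with the Leiden algorithm at a resolution of 0.8 and named clusters by label transfer. Of the deposited cells 38, of which 6 are MOL2b, list more than 3000 genes. The deposited matrix is a signal, each gene's share of the UMIs of a cell. Divided by the cell's lowest value above 0, 100% of values were whole within 0.01, and these recovered UMIs were used. The deposited count of UMIs and genes per cell, the library and the labels (12, merged into 7) came from the table of cells, of which 36 columns were not used. The depths and totals of UMIs given here are sums of the recovered UMIs. The matrix holds 11733 genes, 81 of them with 0 UMIs. Total UMIs were 7129294 (TdTom+) and 3584940 (GFP+). The 3 spinal cord samples were not analysed here.

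UMIs were summed per label and library and scaled to CPM. Log2 ratios used a pseudocount of 1 CPM and genes averaging 50 CPM or more over the groups compared, so that folds of low genes are understated. Ratios have an exact interval conditional on both sums, sums a Poisson interval and shares a Clopper-Pearson interval, all at 95%. UMIs of 1 library are the only units counted, so that no interval covers animals, sorts or libraries, and there is no p-value. For shares of cells with a UMI, 2400 UMIs (the 10th percentile of depth, rounded down) were drawn from each cell with a random seed of 1, and shallower cells were left out. Neighbours were taken on 30 principal components of 3000 variable genes. The ratio, interval and thinning steps were tested on simulated data. Positions and transcript lengths came from GENCODE M21 (GRCm38), and probe targets from the study's list of designed targets, matched to GENCODE transcripts.

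Named are genes of 34 lists (20 of functions, 14 of cell type markers), the 20 highest and 15 lowest called genes against all other cells, the 12 and 12 against MOL2a, the 6 and 6 against each further label and between the origins, and the 5 genes most like Klk6 and Hopx, with ribosomal and mitochondrial genes only counted. The members, lists and rules were chosen with earlier results of these data known. The tools were scipy 1.17.1, scikit-learn 1.9.0, numpy 2.4.6, matplotlib 3.10.9 and pandas 2.3.3 under Python 3.11.15. The design had foreseen a table of counts, and the recovered UMIs took its place. Alternatives changed the filter, the pseudocount, the fold, the weighting of labels, the centring, the thinning, the libraries and the cells used, and leaving out the 23 MOL2b cells with 3 or more astrocyte markers was added after the data had been seen.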

Additional observations from a re-analysis of the deposited data

How the results depend on the processing

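No test was made, paired or not, because each origin had 1 library, though the contrasts between labels were also taken within each library. With 1 library per origin, differences between animals, sorts and libraries were not measured, and near the filter of 50 CPM a few UMIs decide a call. Of 1244 values of named genes over 10 settings, 1126 stayed within their counting interval and 118 moved. Among the genes called in the main setting 0 changed sign, while the sign of the other named genes was not checked. The following counts of called genes are given as higher and lower in MOL2b against all other cells, MOL2a, MOL2/4, MOL2/MFOL and MOL5/6, in this order, and last as TdTom+ against GFP+. Without a filter they were 335 and 1314, 623 and 328, 1962 and 881, 808 and 656, 692 and 669, and 1707 and 1155. With a filter of 200 CPM they were 20 and 34, 3 and 22, 190 and 113, 8 and 78, 37 and 33, and 2 and 4. In the GFP+ library alone they were 155 and 230, 187 and 240, 910 and 538, 304 and 512, and 237 and 248. A fold of 2 gave 8 and 26, 1 and 3, 226 and 142, 5 and 69, and 50 and 30. The TdTom+ library alone gave 71 and 149 against MOL2a and 132 higher against MOL2/MFOL. With labels weighted equally, 194 genes were lower than in all other cells. A pseudocount of 10 CPM gave 6 higher against MOL2a and 28 lower in TdTom+. In thinned cells 24 were higher than in MOL2a, and 105 and 118 differed between the origins. The filters, the fold and the single libraries change by construction what a gene must pass, and the cause of the other changes was not tested. Without the 23 cells with astrocyte markers the counts were 70 and 104, 9 and 64, 568 and 344, 55 and 285, 136 and 99, and 38 and 46.

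Of mature cells alone MOL2b was 16.7% in TdTom+ and 20.9% in GFP+. Klk6, Hopx and both were found in 41.6%, 49.2% and 28.0% of MOL2b cells without thinning, in 18.9%, 16.8% and 4.14% at 1000 UMIs, and in 15.02%, 11.5% and 3.29% with at least 2 UMIs. With cells thinned first, neighbours of MOL2b were 30.1% MOL2b, 18.1% MOL2a, 16.6% MOL2/MFOL and 9.11% MOL2/4, and with 10 components 20.7% MOL2a and 12.5% MOL2/MFOL. The cause of the changes in neighbours was not tested.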
